A study of Homo sapiens with 20 samples.

Results

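The 44 genes described here encode human translation initiation factors, relatives named after them such as EIF1AD, and the eIF4E-binding proteins (4E-BPs). They were chosen by name, from a fixed list of symbols, and are 44 of the 57500 genes listed in each library. Their mRNA was measured by RNA-seq in NTERT keratinocytes, which are human epidermal cells immortalized with hTERT. WT cells carry a control sgRNA, and GCN2KO cells are an early-passage pool, not a clone, edited with CRISPR/Cas9 in EIF2AK4, the gene of the eIF2 kinase GCN2. Both were differentiated as monolayers, for 36 h by the study's methods, while its results text gives a longer time. They were then left unwounded or subjected to high-density wounding (HDW), in which pipet tips are drawn across the monolayer in perpendicular directions. RNA was prepared 6 h after wounding. Each genotype had 5 replicates unwounded and 5 after HDW. The labels do not say that replicates were separate cultures. The study describes cells plated in replicates of 5, and it counts the n of its figure legends as biological replicates. The p-values measure the spread between these samples, and how much of it is technical was not tested. In RNA of whole cultures, fewer cells that express a gene and less RNA of it per cell cannot be told apart.

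Initiation begins when eIF2, loaded with GTP and the initiator tRNA, joins the small ribosomal subunit together with eIF1, eIF1A, eIF5 and eIF3. The eIF4 factors bind the cap of the mRNA, unwind its leader and bring it to this complex, and the 4E-BPs compete with eIF4G for the cap-binding protein eIF4E. After the start codon is recognized, eIF5 promotes GTP hydrolysis, eIF5B helps the large subunit to join, and eIF2B reloads eIF2 with GTP. GCN2 phosphorylates the alpha subunit of eIF2, which turns eIF2 into an inhibitor of eIF2B, lowers global initiation and is the central step of the integrated stress response. EIF2S1, which encodes that alpha subunit, is not among the 44 genes, and phosphorylation was not analysed here.

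EIF2AK4 (chromosome 15, 39934115 to 40035591, GRCh38) had 4404, 4152, 4555, 4287 and 4379 normalized read counts in the WT unwounded and 4303, 4222, 4181, 4282 and 3980.2 in the WT HDW libraries. The GCN2KO unwounded libraries held 806, 859.9, 935, 906 and 962 and the GCN2KO HDW libraries 935, 809.8, 858, 951 and 814. Every GCN2KO library lay below every WT library, and the log2 fold change in unwounded cells was -2.28 ± 0.065 (SE, adjusted p = 4.29e-13 by edgeR). The residual mRNA does not measure GCN2 protein, because an edited allele can still be transcribed.

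The libraries held 14083504 to 34611570.0 counts, and the 44 genes took 1.08% to 1.19% of them in WT and 0.954% to 1.06% in GCN2KO libraries. GCN2KO unwounded replicates 2 and 4 stood apart from replicates 1, 3 and 5, towards the GCN2KO HDW libraries. On the third principal component they lay at 2.31 and -2.75, the other GCN2KO unwounded libraries at -28.4 to -17.6 and the GCN2KO HDW libraries at 12.9 to 19.2. On the first component, GCN2KO unwounded replicate 1, at 37.5, and GCN2KO HDW replicate 5, at 36.1, stood apart from the other GCN2KO libraries. Those lay at 50.6 to 56.7, farther from the WT libraries, at -59.5 to -37.0. Of the 44 genes, 23 (52.3%) had replicates 2 and 4 both outside the range of the other GCN2KO unwounded libraries on the same side, against 39.6% of all genes tested. Values of single genes among the 44 are therefore also given without GCN2KO unwounded replicates 2 and 4 where that changed a printed call. Printed counts of the 44 genes and of their groups are so given where they changed by over 1.5 times. Other calls changed as well. For HDW in GCN2KO cells, EIF1AD went from an adjusted p of 0.0641 to 0.0206 and EIF2D from 0.157 to 0.0272 (edgeR). The 8 keratinocyte markers did not move together. KRT5, the most abundant, had a mean of 233780.0 ± 5393 normalized read counts (SD, n = 5) in WT unwounded and 329190.0 ± 23070.0 in GCN2KO unwounded cells, and IVL, a marker of differentiation, had 3126 ± 255 and 11072 ± 2637. KRT14 stood at 63316 ± 1901 in WT and 35134 ± 3755 in GCN2KO unwounded cells, TP63 at 12016 ± 349 and 8346 ± 555, and KRT1 at 22.4 ± 6.34 and 11.2 ± 2.63. Their summed level ran from 353200.0 to 364000.0 in unwounded and from 390700.0 to 417000.0 in wounded WT libraries, and from 398200.0 to 466300.0 in unwounded and 477600.0 to 521700.0 in wounded GCN2KO libraries. Markers of other cell types summed to less. The 3 leukocyte markers summed to 37.6 to 57.1 in unwounded and 62.3 to 76.8 in wounded WT libraries, and to 73.9 to 115.8 and 88.1 to 110.9 in unwounded and wounded GCN2KO libraries, most of it CD68, with PTPRC and CD3E at or near 0. The 4 melanocyte markers summed to 57.6 to 74.9 and 56.5 to 68.4 in WT and to 71.4 to 100 and 64.2 to 100.3 in GCN2KO libraries, with MLANA and PMEL detected and TYR without a count in any library. The 5 fibroblast markers summed to between 663 and 1033 and the 3 endothelial markers to between 1.53 and 18.2. Most of the fibroblast sum was COL1A1, with group means of 736 to 892, while COL1A2, COL3A1 and PDGFRA were near 0. The part of any of these in the results below was not tested.

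Per length, the most abundant of the 44 mRNAs in WT unwounded cells was EIF4B, which encodes a cofactor of the eIF4A helicase, at 850.6 ± 43.3 TPM (counts per transcript length, scaled to the same total in every library, SD, n = 5). EIF1, a guard of start codon choice, followed at 772 ± 12.7 TPM and EIF5A at 675.0 ± 6.30 TPM, and the ranges of these 3 did not overlap. EIF5A2 (2.29 ± 0.38 TPM), EIF4EBP3 (4.84 ± 2.26 TPM) and EIF4E3 (7.46 ± 0.75 TPM) were the least abundant, and the ranges of neighbours among these overlapped. Between them, eIF2B subunits ranged from 16.4 TPM for EIF2B2 to 49.1 TPM for EIF2B1, while the eIF2 subunit genes EIF2S3 and EIF2S2 stood at 532 and 471 TPM with overlapping ranges. The order depends on the transcript models, since with exons of protein-coding transcripts alone EIF3E moved from 71.0 to 162 TPM and EIF2D from 39.5 to 111 TPM. EIF4A1, at 28.5 TPM, shares 47.4% of its exonic bases with other genes on the same strand, and EIF3C has the near-identical copy EIF3CL, so their counts are uncertain. EIF4EBP3 shares 73.2% with the read-through gene ANKHD1-EIF4EBP3, EIF3L shares 51.8% and EIF2B2 23.6% with other genes.

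More of the 44 mRNAs were lower than higher in GCN2KO cells compared with WT, and in WT cells more were higher than lower after wounding. In unwounded cells, 9 were higher and 18 lower in GCN2KO than in WT at an adjusted p of at most 0.05 (edgeR, adjusted over all genes tested), where 33.4% of all genes tested were higher and 33.1% lower. After HDW, 10 were higher and 23 lower, against 35.9% and 35.8% of all genes. HDW against unwounded gave 17 higher and 6 lower mRNAs in WT cells, against 26.1% and 25.2% of all genes. With library size alone in place of TMM scaling, the counts in WT cells were 15 and 13, where 3368 of 15348 genes tested were higher and 4596 lower. Without WT unwounded replicate 4 the lower count was 10, against 3724 of 15471 genes tested. In GCN2KO cells HDW gave 5 higher and 11 lower, against 11.9% and 10.8%. Without GCN2KO unwounded replicates 2 and 4 these counts were 9 and 17, against 2936 higher and 2856 lower of 16165 genes tested. With library size alone they were 8 and 11, against 2003 and 1569 of 15791. Without GCN2KO unwounded replicate 1, 3 or 5 or GCN2KO HDW replicate 1, 2, 3 or 4, the lower count was 3 to 6. Over all genes tested, 887 to 1320 were lower in these fits.

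The median log2 fold change of the 44 genes was -0.10 and -0.12 for GCN2KO against WT, unwounded and after HDW, where the median of all genes tested was 0.00 in both. It was 0.00 for HDW in WT and -0.02 in GCN2KO cells, again with 0.00 for all genes. The groups compared did not overlap for 21 of the 44 genes between genotypes unwounded (53.3% of all genes tested) and for 30 after HDW (57.2%). They did not overlap for 21 in the HDW comparison in WT (36.9%) and for 10 in GCN2KO cells (15.2%). A DE gene is 1 that also changed by at least 1 on the log2 scale. EIF2B2 and EIF5A2 were higher and EIF4EBP3 lower DE genes in GCN2KO unwounded cells (8.21% and 8.22% of all genes), and EIF3E and EIF4EBP3 were lower DE genes after HDW (7.83%, with 7.1% higher). EIF4EBP1 and EIF5A2 were higher DE genes after HDW in WT cells (2.62%, with 1.55% lower), and in GCN2KO cells none of the 44 was, where 0.475% of all genes were higher and 0.196% lower DE genes.

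**Figure D1:**
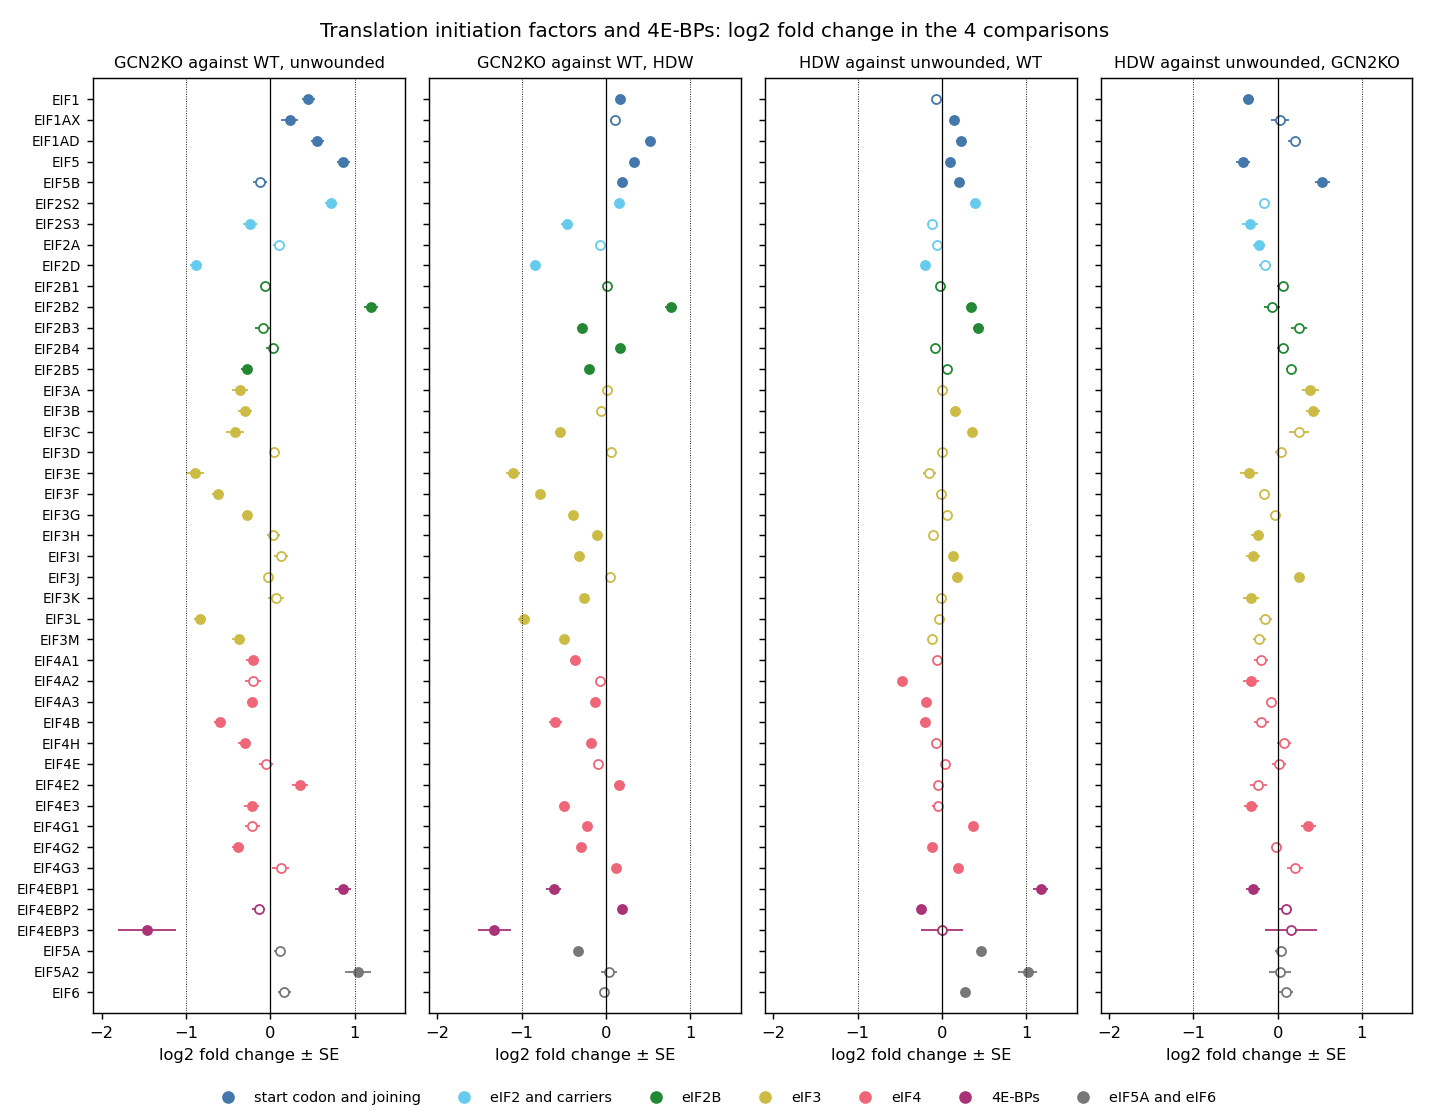
Log2 fold change ± SE of each of the 44 genes in the 4 comparisons (edgeR, 5 libraries a group), with filled circles for an adjusted p of at most 0.05 and dotted lines at 1 and -1. Of the 13 eIF3 genes, 8 in unwounded and 9 in wounded cells were lower in GCN2KO and none higher, while EIF4EBP1 lay above WT in unwounded and below it in wounded cells. Of all genes tested, 33.1% were lower and 33.4% higher in unwounded cells, and 35.8% and 35.9% in wounded cells.

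The eIF3, eIF4 and eIF2B groups and the group of eIF2 and other carriers differed in how they stood between the genotypes. The group of start codon selection and subunit joining follows further below. Of all genes tested, 33.4% were higher and 33.1% lower in GCN2KO unwounded cells, and 35.9% and 35.8% after HDW. Of 13 eIF3 genes, 8 were lower and 0 higher in GCN2KO unwounded cells, with a median change of -0.30, and after HDW 9 were lower and 0 higher with a median of -0.32. Without GCN2KO unwounded replicates 2 and 4, 8 eIF3 genes were lower and 2, EIF3I and EIF3K, higher in unwounded cells, and with library size alone 8 were lower and 1 higher after HDW. Of 11 eIF4 genes, 6 were lower and 1 higher in unwounded cells (median -0.21), and 7 were lower and 2 higher after HDW (median -0.18), where no eIF4 gene was higher without a filter or with all 20 samples in 1 fit. Of 5 eIF2B genes, 1 was higher and 1 lower in unwounded cells, and 2 were higher and 2 lower after HDW, with medians of -0.06 and 0.01. The 4 genes of eIF2 and of other carriers of initiator tRNA held 1 higher and 2 lower in each state, and without these libraries 2 higher and 1 lower in unwounded cells. These groups are small and their medians are descriptions, with no test between groups.

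Many mRNAs of the translation machinery begin with a C and an unbroken run of pyrimidines, the terminal oligopyrimidine (TOP) form, which lets mTORC1 control their translation through LARP1. RefSeq promoters of GRCh38.p14, with 250 bases before and 50 after each start, matched 37 of the 44 genes, all but EIF2S2, EIF3A, EIF3E, EIF3G, EIF3H, EIF3L and EIF4EBP1. A start that begins with C and a run of at least 5 pyrimidines, the C included, was found in 9 of them (24.3%). The share was 5.14% of all 27305 genes with a promoter and 7.42% of those tested in unwounded cells. The 30 bases around these starts, 10 before and 20 after, are shown because their genes are compared below, with the pyrimidine run from the start onward in capitals.
EIF2S3: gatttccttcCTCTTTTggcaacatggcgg
EIF2A: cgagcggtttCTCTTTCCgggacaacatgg
EIF2D: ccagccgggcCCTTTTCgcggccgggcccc
EIF3D: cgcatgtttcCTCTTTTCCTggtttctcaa
EIF3F: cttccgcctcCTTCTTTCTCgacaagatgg
EIF3K: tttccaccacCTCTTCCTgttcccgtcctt
EIF3M: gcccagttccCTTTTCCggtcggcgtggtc
EIF4A2: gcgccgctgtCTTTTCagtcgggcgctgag
EIF4B: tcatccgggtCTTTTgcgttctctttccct
They lie at chrX:24054946-24054975 (plus strand), chr3:150546777-150546806 (plus strand), chr1:206612446-206612475 (minus strand), chr22:36529147-36529176 (minus strand), chr11:7987327-7987356 (plus strand), chr19:38619178-38619207 (plus strand), chr11:32583821-32583850 (plus strand), chr3:186783567-186783596 (plus strand) and chr12:53006446-53006475 (plus strand), in that order.

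Among the carriers of initiator tRNA, EIF2S2 and EIF2D stood farthest from WT in unwounded cells, in opposite directions, and EIF2D and EIF2S3 did after HDW, both lower. EIF2S2, which encodes the beta subunit of eIF2, had 7790.1, 8481, 8260.1, 8609.8 and 8464 normalized read counts in WT unwounded and 10756, 11159, 11029.7, 10694 and 10954 in WT HDW libraries. GCN2KO unwounded libraries held 13403, 12427, 15279.7, 12726 and 14523 and GCN2KO HDW libraries 11915, 12224, 12145, 12005 and 12471 of it. All WT unwounded libraries lay below all others, and wounded WT cells stayed below GCN2KO cells in either state. The log2 fold change was 0.72 ± 0.069 (SE, adjusted p = 1.48e-07 by edgeR) for GCN2KO against WT unwounded and 0.15 ± 0.033 (SE, adjusted p = 0.000831 by edgeR) after HDW. HDW raised EIF2S2 by 1.31-fold in WT cells, a log2 fold change of 0.39 ± 0.033 (SE, adjusted p = 1.2e-07 by edgeR). In GCN2KO cells the value was -0.16 ± 0.066 (SE, adjusted p = 0.0946 by edgeR), which did not pass the test. It passed without GCN2KO unwounded replicate 2 (adjusted p = 0.046 by edgeR) and without replicates 2 and 4, at -0.24 (adjusted p = 0.0101 by edgeR).

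EIF2S3, the gamma subunit that binds GTP and tRNA, had 13651 to 16020.0 normalized read counts in unwounded and 12084 to 14806 in wounded WT cells, and 10934 to 14834 and 8823 to 11942 in unwounded and wounded GCN2KO cells. It was lower in GCN2KO than in WT cells after HDW with a log2 fold change of -0.46 ± 0.075 (SE, adjusted p = 7.06e-05 by edgeR), with no overlap between the groups. In unwounded cells the value was -0.24 ± 0.085 (SE, adjusted p = 0.0201 by edgeR) with overlapping groups. Without GCN2KO unwounded replicate 4 it no longer passed (adjusted p = 0.057 by edgeR), nor did it without replicates 2 and 4, at -0.12 (adjusted p = 0.133 by edgeR). HDW gave -0.12 ± 0.055 (SE, adjusted p = 0.0752 by edgeR) in WT, which did not pass the test but did without WT unwounded replicate 4 or WT HDW replicate 1 (adjusted p = 0.0252 and 0.0459 by edgeR). In GCN2KO cells it gave -0.33 ± 0.10 (SE, adjusted p = 0.0261 by edgeR), a call that was lost without GCN2KO unwounded replicate 1 or 5 or GCN2KO HDW replicate 1, 2, 3 or 4 (edgeR adjusted p up to 0.0658). EIF2D, which can deliver tRNA to the ribosome without GTP, had 2077, 2229, 2323, 2114 and 2277 in WT unwounded and 1899, 1920.5, 1947, 1883 and 1957 in WT HDW libraries. It had 1314, 1127, 1266, 1061 and 1207 in GCN2KO unwounded and 1058, 999.7, 1027, 1062 and 1201 in GCN2KO HDW libraries, so that every GCN2KO library lay below every WT library. Its log2 fold change was -0.88 ± 0.069 (SE, adjusted p = 1.41e-08 by edgeR) in unwounded cells, a level 1.84-fold lower, and -0.85 after HDW. EIF2A, whose product can also bind initiator tRNA, was at 0.11 and -0.08, neither of which passed the test, and without GCN2KO unwounded replicates 2 and 4 it was higher in unwounded cells, at 0.20 (adjusted p = 0.00635 by edgeR).

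Of the 5 subunit genes of eIF2B, the exchange factor that phosphorylated eIF2 inhibits, EIF2B2 differed most between the genotypes, while EIF2B3 had the largest value for HDW in either genotype. This gene of the regulatory beta subunit (chromosome 14, 75002921 to 75012366) had 600.2, 648, 589, 662 and 577 normalized read counts in WT unwounded and 771, 768, 749, 831 and 788 in WT HDW libraries. GCN2KO unwounded libraries held 1209.6, 1383, 1664, 1423 and 1322 and GCN2KO HDW libraries 1451, 1296, 1359.5, 1456 and 1089. GCN2KO libraries lay above WT libraries throughout, and the WT HDW libraries lay above the WT unwounded libraries. GCN2KO against WT gave 1.19 ± 0.083 (SE, adjusted p = 3.46e-09 by edgeR) on the log2 scale in unwounded cells, a level 2.28-fold higher, and 0.77 ± 0.071 (SE, adjusted p = 2.98e-07 by edgeR) after HDW. HDW raised EIF2B2 by 0.34 ± 0.049 (SE, adjusted p = 3.04e-05 by edgeR) on the log2 scale in WT, and the value in GCN2KO cells was -0.07, with an interval of -0.27 to 0.14 and no call. Its exons overlap genes of the opposite strand over 23.6% of their length, and whether the counting used strand is not given in the sources used here.

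The other eIF2B subunits moved by less than 0.45 on the log2 scale in every comparison. EIF2B5, the catalytic epsilon subunit, was lower in GCN2KO cells, at -0.28 ± 0.060 (SE, adjusted p = 0.000581 by edgeR) unwounded and -0.20 ± 0.042 (SE, adjusted p = 0.000644 by edgeR) after HDW, with 1179.5 to 1329.5 normalized read counts in WT unwounded and 999 to 1093 in GCN2KO unwounded libraries. EIF2B3, the gamma subunit, had 378 to 463 normalized read counts in WT unwounded and 501 to 584 in WT HDW libraries and rose by 0.43 ± 0.063 (SE, adjusted p = 3.49e-05 by edgeR). In GCN2KO cells its value was 0.26 ± 0.095 (SE, adjusted p = 0.0627 by edgeR), which passed without GCN2KO unwounded replicate 3 or GCN2KO HDW replicate 5 (adjusted p = 0.0265 and 0.0418 by edgeR), and the interaction, at -0.19 ± 0.12 (SE, adjusted p = 0.252 by edgeR), did not pass. EIF2B3 was lower in GCN2KO than in WT after HDW, at -0.28 ± 0.061 (SE, adjusted p = 0.000809 by edgeR), and in unwounded cells its value was -0.09 with no call. EIF2B4, the delta subunit, was higher in GCN2KO after HDW by 0.16 ± 0.040 (SE, adjusted p = 0.00241 by edgeR), a call that was lost when libraries were thinned to the smallest one (adjusted p = 0.0523 by edgeR). Its values of 0.03 in unwounded cells, -0.09 for HDW in WT and 0.07 in GCN2KO cells did not pass, and its interaction passed only without GCN2KO unwounded replicate 3 (adjusted p = 0.0475 by edgeR). EIF2B1, the alpha subunit, passed in no comparison, with intervals of -0.18 to 0.07 and -0.08 to 0.10 for genotype and -0.10 to 0.05 and -0.07 to 0.19 for HDW. EIF2B5 gave 0.06 for HDW in WT and 0.16 in GCN2KO cells, without a call, and passed in GCN2KO cells without GCN2KO unwounded replicate 4 (adjusted p = 0.0413 by edgeR) or replicates 2 and 4, at 0.17 (adjusted p = 0.0429 by edgeR).

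Of EIF1, EIF1AX, EIF5 and EIF5B, which act in start codon selection and subunit joining, and EIF1AD, which is listed with them for its likeness to eIF1A and is no established initiation factor, 4 were higher and none lower in GCN2KO than in WT cells, both unwounded and after HDW, with median log2 fold changes of 0.45 and 0.19. Of all genes tested, 33.4% were higher and 33.1% lower in unwounded cells, and 35.9% and 35.8% after HDW. Without GCN2KO unwounded replicates 2 and 4, EIF5B was lower in unwounded cells, at -0.27 (adjusted p = 0.00129 by edgeR). EIF5, which makes eIF2 hydrolyse its GTP, had 6761, 7084, 7061, 7263 and 7181 normalized read counts in WT unwounded and 7544, 7798, 7598, 7628 and 7419 in WT HDW libraries. It had 13522, 11492, 13869, 11021 and 14270.0 in GCN2KO unwounded and 8747, 9489.8, 9208, 9571 and 10975 in GCN2KO HDW libraries. Wounded GCN2KO cells thus lay between unwounded GCN2KO and WT cells, with no overlap on either side. The log2 fold changes were 0.86 ± 0.077 (SE, adjusted p = 6.11e-08 by edgeR) for GCN2KO unwounded, 0.34 ± 0.053 (SE, adjusted p = 5.32e-05 by edgeR) for GCN2KO after HDW, 0.10 ± 0.030 (SE, adjusted p = 0.0109 by edgeR) for HDW in WT and -0.41 ± 0.086 (SE, adjusted p = 0.00605 by edgeR) for HDW in GCN2KO cells.

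EIF1, which holds the scanning complex open until the start codon is met, had 19040.2, 19466, 19364, 18821 and 19879 normalized read counts in WT unwounded and 18506, 18082, 18446, 17978 and 19128 in WT HDW libraries. It had 28488, 24063, 29125, 23682 and 26513 in GCN2KO unwounded and 20572, 20355, 20491, 20035 and 21549.5 in GCN2KO HDW libraries. It fell after HDW in GCN2KO cells with a log2 fold change of -0.35 ± 0.070 (SE, adjusted p = 0.00496 by edgeR), and in WT cells the value was -0.07 ± 0.031 (SE, adjusted p = 0.0674 by edgeR), with no call. EIF5B, the GTPase of subunit joining, went the opposite way in GCN2KO cells. It had 4463 to 4806 normalized read counts in unwounded and 5114 to 5523 in wounded WT cells, and 3578 to 4858 and 5771 to 6222 in unwounded and wounded GCN2KO cells, and rose after HDW by 0.20 ± 0.034 (SE, adjusted p = 0.000151 by edgeR) in WT and 0.53 ± 0.087 (SE, adjusted p = 0.00157 by edgeR) in GCN2KO cells. EIF1AD was higher in GCN2KO cells in both states, by 0.56 unwounded and 0.52 ± 0.053 (SE, adjusted p = 7.86e-07 by edgeR) after HDW. EIF1AX, which encodes the scanning factor eIF1A, was higher by 0.23 in GCN2KO unwounded cells and by 0.14 after HDW in WT cells.

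eIF3 is the large scaffold of initiation, and its 13 subunit genes did not move as a block. EIF3E, EIF3L and EIF3F were lowest relative to WT. EIF3E had 19243, 17451, 20748, 16141 and 19045 normalized read counts in WT unwounded and 18405, 13792, 15575, 18279 and 17592 in WT HDW libraries. GCN2KO unwounded libraries held 11071, 8236, 11313, 8010.2 and 11141 and GCN2KO HDW libraries 7024, 7687, 7495, 7737 and 9042, all below every WT library. The log2 fold change was -0.89 ± 0.11 (SE, adjusted p = 1.78e-06 by edgeR) unwounded, a level 1.86-fold lower, and -1.10 ± 0.083 (SE, adjusted p = 4.45e-08 by edgeR) after HDW. Replicates 2 and 4 of GCN2KO unwounded cells were the lowest of their group, and without them the unwounded value was -0.73 (adjusted p = 1.36e-06 by edgeR). In GCN2KO cells HDW gave -0.34 ± 0.11 (SE, adjusted p = 0.0346 by edgeR) with overlapping groups, a call that was lost without GCN2KO unwounded replicate 1, 3 or 5 or GCN2KO HDW replicate 1, 2, 3 or 4 (edgeR adjusted p up to 0.0865). Without GCN2KO unwounded replicates 2 and 4 it was -0.51 (adjusted p = 0.000428 by edgeR). In WT cells EIF3E was at -0.15, without a call.

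EIF3L had 7832, 7314, 8788, 7315 and 7947 normalized read counts in WT unwounded and 8283, 6720.4, 7636, 8033 and 7864 in WT HDW libraries. It had 4837, 4324, 4458, 4036 and 4202 in GCN2KO unwounded and 3507, 3898, 3763, 3839 and 4579 in GCN2KO HDW libraries, again with no overlap between the genotypes. It was lower in GCN2KO, at -0.84 ± 0.071 (SE, adjusted p = 3.61e-08 by edgeR) unwounded and -0.98 ± 0.070 (SE, adjusted p = 2.73e-08 by edgeR) after HDW, and it shares 51.8% of its exonic bases with other genes. EIF3F had 8725 to 11252 normalized read counts in WT unwounded and 5999 to 6959.9 in GCN2KO unwounded libraries. EIF3F was lower, at -0.62 and -0.78, EIF3M, at -0.37 and -0.49, EIF3C, at -0.42 and -0.54 and EIF3G, at -0.28 and -0.39, each of which passed the test. EIF3D and EIF3J passed in neither genotype comparison, with values between -0.02 and 0.06. EIF3H, EIF3I and EIF3K were lower in GCN2KO after HDW, at -0.11, -0.32 and -0.26, and had no call in unwounded cells. Without GCN2KO unwounded replicates 2 and 4, EIF3I and EIF3K were higher there, at 0.25 (adjusted p = 0.00698 by edgeR) and 0.21 (adjusted p = 0.0263 by edgeR).

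EIF3A and EIF3B, subunits of the conserved core of eIF3, were lower in GCN2KO in unwounded cells, at -0.36 and -0.30, and at 0.01 and -0.06 after HDW, with no call. EIF3A had 17409, 19799.9, 13919, 18602 and 13627 normalized read counts in GCN2KO unwounded libraries, and 20603 to 22841 in WT unwounded, 20542 to 22720.0 in WT HDW and 21330.0 to 22249 in GCN2KO HDW libraries. Every GCN2KO unwounded library lay below all others, and the remaining 3 groups overlapped. EIF3B had 6070.5 to 6441 and 6912 to 7148 normalized read counts in unwounded and wounded WT cells, and 4347 to 5842 and 6672 to 6842 in unwounded and wounded GCN2KO cells. HDW raised EIF3A in GCN2KO cells by 0.39 ± 0.10 (SE, adjusted p = 0.0149 by edgeR) and EIF3B by 0.42 ± 0.082 (SE, adjusted p = 0.00395 by edgeR). Over all 13 genes, HDW gave 4 higher and 0 lower in WT, against 26.1% and 25.2% of all genes tested. In GCN2KO cells it gave 3 higher and 4 lower, against 11.9% and 10.8%. With library size alone, 3 eIF3 genes were lower after HDW in WT cells, where 4596 of 15348 genes tested were. With 1 library left out, the lower count in GCN2KO cells was 0 to 6, against 887 to 2185 of all genes.

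The 11 eIF4 genes held the cap-binding proteins, the helicase eIF4A with its cofactors, and the eIF4G scaffolds. EIF4B (chromosome 12, 53006282 to 53042215) had 35562, 32976, 38438, 34507 and 35641 normalized read counts in WT unwounded and 33471, 26672, 29554, 32731 and 31569 in WT HDW libraries. It had 27090.5, 23191, 22505, 22163 and 21893 in GCN2KO unwounded and 17721, 19930.0, 19948, 19629 and 24297 in GCN2KO HDW libraries. GCN2KO unwounded lay below WT unwounded, and GCN2KO HDW below WT HDW, without overlap. The log2 fold change of EIF4B was -0.60 ± 0.076 (SE, adjusted p = 3.79e-06 by edgeR) unwounded and -0.60 ± 0.079 (SE, adjusted p = 1.05e-05 by edgeR) after HDW, and HDW lowered it in WT cells, at -0.20 ± 0.057 (SE, adjusted p = 0.00731 by edgeR), with overlapping groups. EIF4G2, a relative of eIF4G that lacks the binding site for eIF4E, was lower in GCN2KO, at -0.38 and -0.30, and EIF4H, a cofactor of eIF4A, at -0.30 and -0.18. EIF4E, the cap-binding protein itself, passed in no comparison, with values from -0.09 to 0.04. Its homologue EIF4E2 was higher in GCN2KO by 0.36 and 0.16, and EIF4E3 was lower, at -0.22 and -0.50. The unwounded calls of EIF4E3 and EIF4A1 were lost without GCN2KO unwounded replicates 2 and 4, at -0.13 (adjusted p = 0.207 by edgeR) and -0.10 (adjusted p = 0.194 by edgeR), and EIF4G1 was then lower, at -0.37 (adjusted p = 0.000295 by edgeR).

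EIF4G1 and EIF4A2 changed after HDW in the same direction in both genotypes. EIF4G1, the main scaffold that joins eIF4E to eIF3, had 14443 to 15615 normalized read counts in WT unwounded and 19102 to 20019 in WT HDW cells, and 10704 to 14993 and 15607 to 16867 in GCN2KO cells. It rose after HDW by 0.37 ± 0.033 (SE, adjusted p = 2.16e-07 by edgeR) in WT and 0.37 ± 0.094 (SE, adjusted p = 0.015 by edgeR) in GCN2KO cells, and the interval of the difference was -0.22 to 0.19. EIF4A2 fell, from 13400.3, 14068, 14371, 13529 and 14455 in WT unwounded to 10476, 9049, 9907, 10489.9 and 10437 normalized read counts in WT HDW libraries, at -0.47 ± 0.042 (SE, adjusted p = 2.47e-07 by edgeR). In GCN2KO cells it had 12182, 9741, 13807, 10322 and 14254 unwounded and 9350.4, 9712, 9438, 9819 and 9784 after HDW, with a log2 fold change of -0.31 ± 0.10 (SE, adjusted p = 0.0301 by edgeR) overlapping groups, and an interval of -0.09 to 0.37 for the difference from WT. None of the 11 eIF4 genes had an interaction that passed the test, and without GCN2KO unwounded replicates 2 and 4 those of EIF4A1, EIF4E2 and EIF4E3 did, at -0.27 (adjusted p = 0.0191 by edgeR), -0.31 (adjusted p = 0.0268 by edgeR) and -0.37 (adjusted p = 0.00748 by edgeR).

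The largest difference between the genotypes in the response to wounding was that of a 4E-BP. EIF4EBP1, the main 4E-BP and a substrate of mTORC1, had 1604, 1993, 1414, 1883 and 1685 normalized read counts in WT unwounded and 3492, 4505, 4311, 3519.6 and 3524 in WT HDW libraries. It had 3222, 2739, 3143, 2905 and 3524 in GCN2KO unwounded and 2435, 2710.4, 2438, 2142 and 2842 in GCN2KO HDW libraries. WT unwounded libraries lay below all others, 1 GCN2KO unwounded library reached into the range of WT HDW cells, and the GCN2KO groups overlapped with each other. HDW raised EIF4EBP1 2.25-fold in WT cells, by 1.17 ± 0.092 (SE, adjusted p = 6.5e-08 by edgeR) on the log2 scale, and gave -0.29 ± 0.086 (SE, adjusted p = 0.0258 by edgeR) in GCN2KO cells. The call in GCN2KO cells was lost without GCN2KO unwounded replicate 1 or 5 or GCN2KO HDW replicate 1, 3 or 4 (edgeR adjusted p up to 0.0679). GCN2KO was 1.82-fold above WT in unwounded cells, at 0.86 ± 0.092 (SE, adjusted p = 4.9e-07 by edgeR), and 1.54-fold below WT after HDW, at -0.62 ± 0.088 (SE, adjusted p = 1.99e-05 by edgeR). The interaction, which is the log2 response to HDW in GCN2KO minus that in WT cells, was -1.48 ± 0.13 (SE, adjusted p = 4.27e-08 by edgeR).

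EIF4EBP2, a close relative of EIF4EBP1, had estimates of the opposite sign in each of these comparisons. It had 4038, 3865, 3996, 3896 and 3993 normalized read counts in WT unwounded and 3487, 3045, 3309, 3476 and 3359 in WT HDW libraries. It had 3815, 4027, 3318, 3669 and 3100.2 in GCN2KO unwounded and 3609, 3739, 3856, 3805 and 3993 in GCN2KO HDW libraries. It fell after HDW in WT cells, at -0.25 ± 0.038 (SE, adjusted p = 5.47e-05 by edgeR), and was at 0.09 ± 0.076 (SE, adjusted p = 0.375 by edgeR) in GCN2KO cells, with an interaction of 0.33 ± 0.084 (SE, adjusted p = 0.00556 by edgeR). GCN2KO against WT gave -0.14 ± 0.073 (SE, adjusted p = 0.103 by edgeR) in unwounded cells, which passed without GCN2KO unwounded replicate 2 (adjusted p = 0.0281 by edgeR) or replicates 2 and 4, at -0.21 (adjusted p = 0.0153 by edgeR), and gave 0.19 ± 0.044 (SE, adjusted p = 0.00152 by edgeR) after HDW. EIF4EBP3 was barely detected, with 4 to 32 raw counts a library. Its normalized read counts were 11.9, 39.3, 14.5, 26.01 and 24.1 in unwounded and 26.98, 21.03, 27.00, 21.9 and 19.03 in wounded WT libraries, and 10.2, 6.13, 3.51, 10.1 and 10.98 in unwounded and 10.8, 7.53, 9.23, 11.7 and 7.66 in wounded GCN2KO libraries. It was lower in GCN2KO cells, at -1.46 ± 0.34 (SE, adjusted p = 0.00128 by edgeR) unwounded and -1.33 ± 0.20 (SE, adjusted p = 3.45e-05 by edgeR) after HDW, and for HDW its values of 0.00 and 0.16 had intervals of -0.53 to 0.53 and -0.50 to 0.82. Per length, EIF4EBP1 made up 77.4% ± 2.21 (SD, n = 5) of the summed 4E-BP mRNA in WT unwounded and 90.1% ± 1.48 in WT HDW cells, and the ranges did not overlap. It made up 87.7% ± 2.0 in unwounded and 84.5% ± 1.43 in wounded GCN2KO cells, with ranges that overlapped.

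eIF5A, which helps ribosomes past difficult peptide bonds and carries the modified residue hypusine, is encoded by EIF5A and by the far scarcer EIF5A2. EIF5A had 12285, 12559, 12880.4, 12411 and 12465 normalized read counts in WT unwounded and 16924, 17195, 17593, 17382 and 17601 in WT HDW libraries. It had 12534, 12736, 15169, 13378 and 13603 in GCN2KO unwounded and 14144, 14344, 13756, 13677 and 12832 in GCN2KO HDW libraries. The WT HDW libraries lay above all others, and the GCN2KO groups overlapped. EIF5A rose after HDW in WT cells by 0.47 ± 0.029 (SE, adjusted p = 5.77e-09 by edgeR), and in GCN2KO cells its value was 0.04 ± 0.066 (SE, adjusted p = 0.698 by edgeR), with an interaction of -0.44 ± 0.072 (SE, adjusted p = 9.41e-05 by edgeR).

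EIF5A2 had 85.5, 71.4, 106, 75.3 and 99.3 normalized read counts in WT unwounded and 168, 185, 159, 201 and 184 in WT HDW libraries. It had 132, 187, 228, 164 and 192 in GCN2KO unwounded and 195, 211, 174, 184 and 153 in GCN2KO HDW libraries. All WT unwounded libraries lay below the other 3 groups, which overlapped with each other. EIF5A2 rose 2.03-fold after HDW in WT cells, by 1.02 ± 0.11 (SE, adjusted p = 2.42e-06 by edgeR), and stood 2.06-fold above WT in GCN2KO unwounded cells, at 1.04 ± 0.15 (SE, adjusted p = 1.64e-05 by edgeR). For HDW in GCN2KO cells its value was 0.03 ± 0.13 (SE, adjusted p = 0.893 by edgeR), and the interaction was -1.0 ± 0.18 (SE, adjusted p = 0.000325 by edgeR). Per length, EIF5A2 was 0.337% ± 0.054 (SD, n = 5) of the pair in unwounded and 0.499% ± 0.045 in wounded WT cells, and 0.642% ± 0.091 and 0.64% ± 0.051 in unwounded and wounded GCN2KO cells. EIF6, which keeps free large ribosomal subunits from joining too early, rose after HDW in WT cells by 0.27 ± 0.033 (SE, adjusted p = 6.28e-06 by edgeR) and was at 0.10 in GCN2KO cells, without a call.

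**Figure D2:**
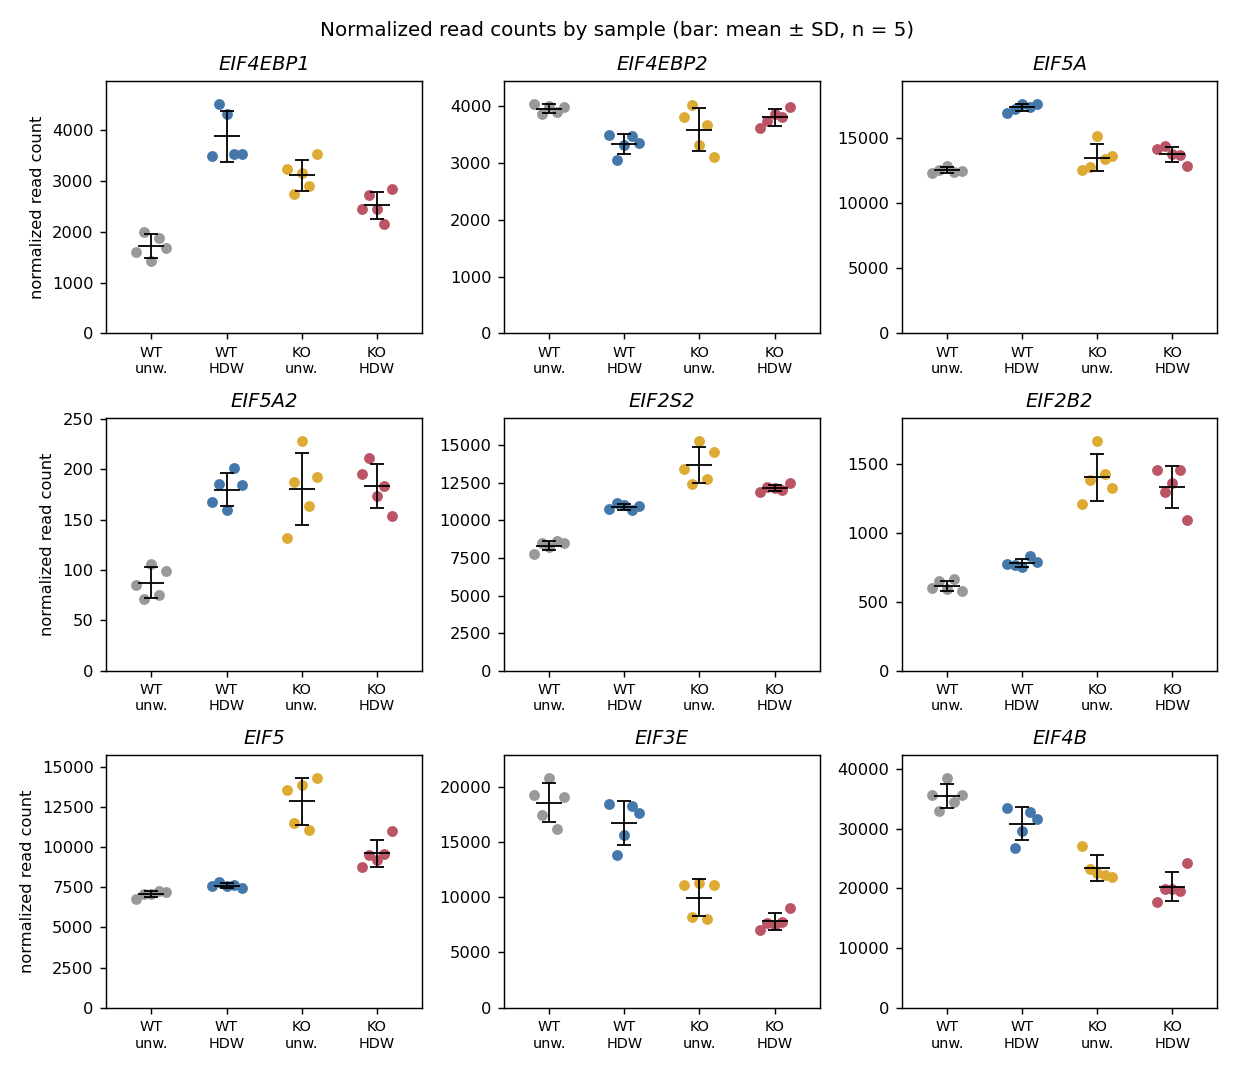
Normalized read counts (y axis, from 0) of 9 of the genes in each library of WT and GCN2KO (KO) cells, unwounded (unw.) and after HDW, with the mean and SD of 5 libraries. For EIF5A2 and EIF2S2 the WT unwounded libraries lie below all others, for EIF5A the WT HDW libraries lie above all others, and for EIF3E and EIF4B the GCN2KO libraries lie below the WT libraries of the same state.

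Over all 44 genes, the interaction passed the test for 4 with a more positive and 9 with a more negative response in GCN2KO than in WT cells, where 11.2% and 12.5% of all genes passed. With library size alone, the split over all genes turned from 1851 positive and 2075 negative to 2477 and 1510.0, and that of the 44 genes was 4 and 8. EIF4EBP1 and EIF5A2 were at -1 or below, where 2.15% of all genes passed at that size and 1.16% at 1 or above. The median interaction of the 44 genes was -0.12. The positive interactions were those of EIF3A, EIF3B, EIF5B and EIF4EBP2, at 0.37, 0.25, 0.32 and 0.33. Beside EIF4EBP1, EIF5A2 and EIF5A, the negative interactions were those of EIF2S2, at -0.56 ± 0.075 (SE, adjusted p = 8.76e-06 by edgeR), EIF2B2, at -0.42 ± 0.11 (SE, adjusted p = 0.00794 by edgeR), and EIF5, EIF3I, EIF3K and EIF1, at -0.52, -0.44, -0.32 and -0.29. EIF2S3 had -0.22 ± 0.12 (SE, adjusted p = 0.179 by edgeR), which passed without GCN2KO unwounded replicates 2 and 4, at -0.34 (adjusted p = 0.0181 by edgeR). Without these libraries 4 interactions were positive and 17 negative, against 2613 and 2933 of 16895 genes tested. The value of EIF4EBP1 was then -1.57 (adjusted p = 7.15e-08 by edgeR).

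**Figure D3:**
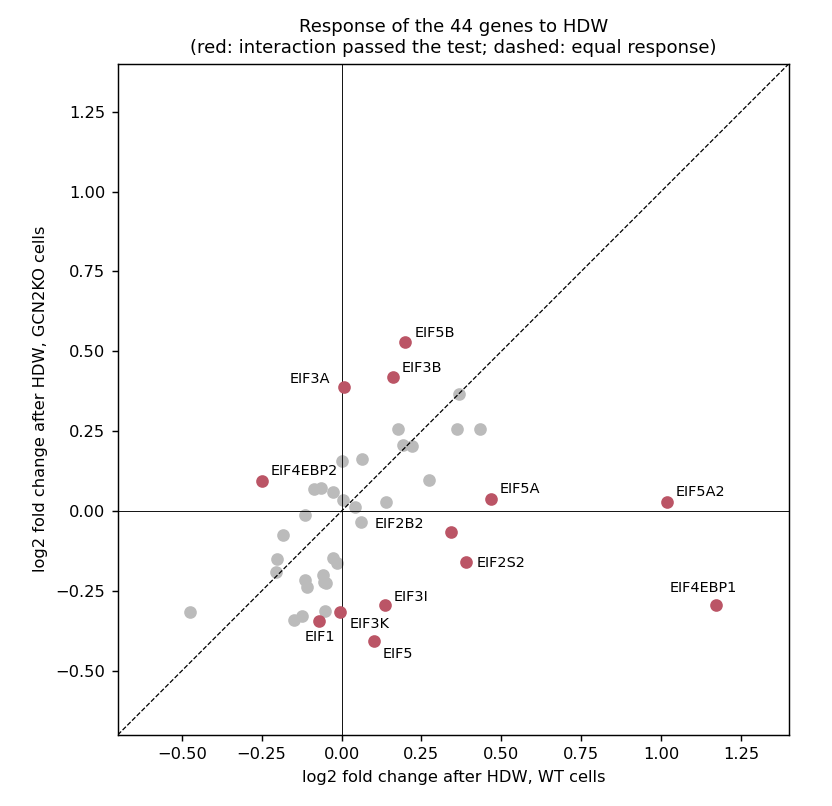
Log2 fold change after HDW in GCN2KO cells (y axis) against that in WT cells (x axis) for the 44 genes, with the 13 whose interaction passed the test in red and the line of equal response dashed. EIF4EBP1 and EIF5A2 lie farthest from the line, at 1.17 and 1.02 in WT and -0.29 and 0.03 in GCN2KO cells.

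None of the 9 genes whose start was shown above to have a TOP form was higher in any of the 4 comparisons, but without GCN2KO unwounded replicates 2 and 4 EIF2A and EIF3K were higher in unwounded cells. In GCN2KO against WT, 5 were lower in unwounded cells (median log2 fold change -0.24) and 6 after HDW (median -0.46). The 28 genes without the form held 7 higher and 9 lower in unwounded and 9 higher and 12 lower in wounded cells, with medians of -0.05 and -0.04. Of all genes tested whose promoter lacked the form, 3628 of 10230 were higher and 3434 lower in unwounded cells (median 0.02). After HDW, 3971 of 10427 were higher and 3746 lower in GCN2KO (median 0.01). Of all 821 genes tested in unwounded cells that had a TOP form, 212 were higher and 356 lower, with a median of -0.12. After HDW, 235 of 823 such genes were higher and 408 lower in GCN2KO, with a median of -0.15. HDW lowered 3 of the 9 in WT (median -0.11) and 4 in GCN2KO cells (median -0.22). Of all tested genes with a TOP form, 284 of 815 were lower and 164 higher after HDW in WT (median -0.06). In GCN2KO cells 175 of 823 were lower and 62 higher (median -0.07). Among the other 28 genes, 15 were higher and 3 lower in WT cells, and 4 were higher and 4 lower in GCN2KO cells. Of all genes tested whose promoter lacked the form, 2929 of 10197 were higher and 2695 lower after HDW in WT cells. In GCN2KO cells 1341 of 10410 were higher and 1090 lower. Without GCN2KO unwounded replicates 2 and 4, more of the 37 genes passed for HDW in GCN2KO cells. Of the TOP genes, EIF2A, EIF2D, EIF2S3, EIF3F, EIF3K, EIF3M and EIF4A2 were then lower, and EIF3D and EIF4B had no call. Of the others, EIF1AD, EIF2B5, EIF3B, EIF3C, EIF3J, EIF4G1, EIF4G3 and EIF5B were higher, and EIF1, EIF3I, EIF4A1, EIF4E2, EIF4E3 and EIF5 lower. In that fit 2936 of 16165 genes tested were higher and 2856 lower. RefSeq starts are not starts measured in keratinocytes, and these shares are descriptions.

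**Figure D4:**
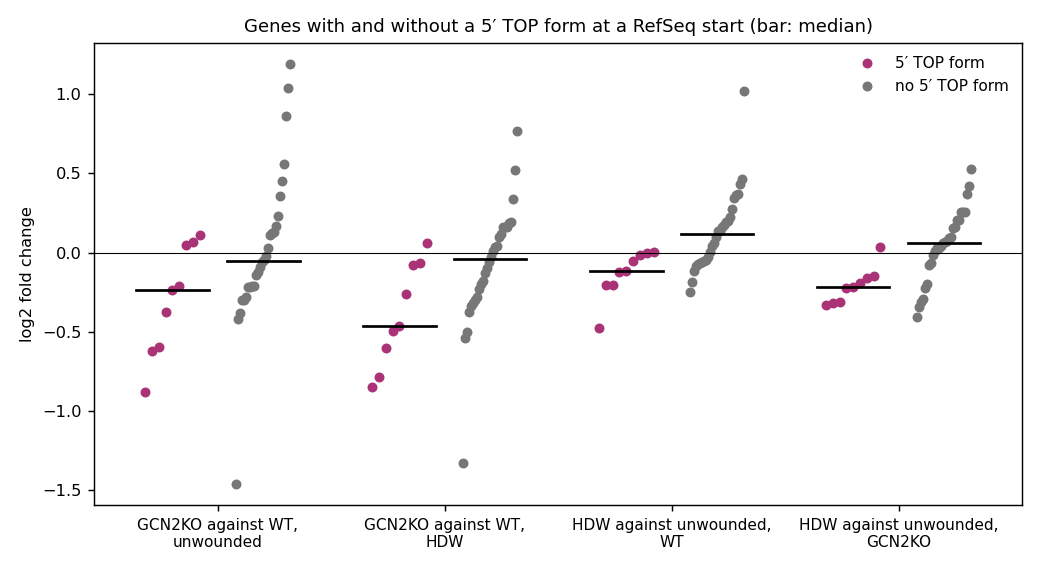
Log2 fold change of the 9 genes with and the 28 without a TOP form at a RefSeq start in the 4 comparisons, each point a gene and each bar a median. The medians of the TOP genes are -0.24, -0.46, -0.11 and -0.22, below those of the other genes in each comparison.

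An E-box of the letters CACGTG, which reads the same on both strands, was found in the promoters of 10 of the 37 genes (27.0%), against 8.77% of all genes and 12.3% of those tested in unwounded cells. These 10 genes were EIF2B3, EIF3F, EIF3K, EIF4A3, EIF4B, EIF4E, EIF4EBP3, EIF4G1, EIF4H and EIF5A2. The letters TGATGCAA or TGATGAAA, a form of the element bound by ATF4 with its partners, were found on either strand in 1 of the 37 genes, EIF4E3 (2.70%), against 2.44% of all genes and 1.54% of those tested.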

How the data were processed

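Reads of 150 bp in pairs were, per the labels and the study's methods, trimmed with Trimmomatic and aligned to GRCh38 with STAR. The authors deposited raw featureCounts counts for each gene, and a check found only whole numbers and unequal totals. Strandedness and the annotation release are not given in the sources used here. GENCODE release 44 gave symbols, positions and overlaps for 56410.0 of 57500 genes.

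Pairs of groups were compared in edgeR 4.0.16 under R 4.3.3 by the quasi-likelihood test, after TMM scaling and filterByExpr (minimum count 10), on their own 10 libraries, and the interaction on all 20. All 44 genes passed this filter in each fit. SE is the size of the log2 fold change over the square root of F. Normalized read counts are scaled by TMM over the 20 libraries, and TPM uses merged exons of all transcripts. Adjusted p-values (Benjamini-Hochberg) run over all genes tested. The scripts were tested on simulated counts with 100 changed genes at a log2 change of 0.5 and 100 at 1. For GCN2KO against WT unwounded, 57 and 81 of them were recovered, and for the interaction 28 and 68. Unchanged genes called numbered 7 and 9. A gene without a call may therefore still have changed.

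Values are given for each DE gene among the 44 (adjusted p of at most 0.05 and a size of at least 1), the 3 higher and 3 lower genes with the largest change, the 4E-BPs, EIF2S2, EIF2S3, the eIF2B subunits and EIF2AK4. Others named were chosen after their values were seen. The 44 genes and all lists were chosen with earlier results of these data known. Alternatives were DESeq2 1.42.0 and its size factors, library size alone, filters (none, or a mean of 50), a fit of all samples, a replicate block, thinning to the smallest library and leaving out each sample. Protein sequences were not analysed here.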

Additional observations from a re-analysis of the deposited data

Results flagged for a closer look

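In 96 sets of 5 libraries (24 named genes in 4 groups), 3 held a library far from the rest of its group (gap over range above 0.71), where chance gives about 1 in 20. These were GCN2KO HDW replicate 4 for EIF2B1, at 1276 normalized read counts against 1201 to 1209.5 in the others, WT unwounded replicate 3 for EIF2B4, at 1004, and GCN2KO unwounded replicate 1 for EIF4B, at 27090.0. For 11 named genes WT and GCN2KO cells responded differently to HDW (interaction, edgeR). The response in GCN2KO minus that in WT cells was -1.48 for EIF4EBP1 (adjusted p = 4.27e-08), -1.0 for EIF5A2 (adjusted p = 0.000325), -0.56 for EIF2S2 (adjusted p = 8.76e-06), -0.52 for EIF5 (adjusted p = 0.00028), -0.44 for EIF5A (adjusted p = 9.41e-05), -0.42 for EIF2B2 (adjusted p = 0.00794) and -0.29 for EIF1 (adjusted p = 0.00877). It was 0.37 for EIF3A (adjusted p = 0.0161), 0.33 for EIF4EBP2 (adjusted p = 0.00556), 0.32 for EIF5B (adjusted p = 0.0159) and 0.25 for EIF3B (adjusted p = 0.0423).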

How the results depend on the processing

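Counts of the 44 genes stayed within 1.5 times under each alternative for GCN2KO against WT, unwounded (8 to 10 higher and 16 to 19 lower with 1 library left out) and after HDW (9 to 11 and 22 to 26). For HDW in WT cells the lower count was 13 with library size alone and 6 to 10 with 1 library left out. For HDW in GCN2KO cells the higher count was 8 with library size alone, 9 with all 20 samples in 1 fit and 9 without GCN2KO unwounded replicates 2 and 4, an alternative chosen after seeing the data. The lower count there was 18 with all 20 samples, 17 without these 2 libraries, 3 to 14 with 1 library left out and 3 with the replicate block. Over all genes tested, HDW in GCN2KO cells gave 2736 higher and 2840 lower of 16536 with all 20 samples. The lower count over all genes was 887 to 2185 with 1 library left out and 882 with the replicate block. The negative interactions were 17 without GCN2KO unwounded replicates 2 and 4, against 2933 of 16895 genes tested. The cause of these changes was not tested. Replicate numbers did not pair the samples (correlation of deviations of same-numbered libraries -0.325 to 0.133), so the block is given only here, and beside that count it ended the calls of EIF2S3 (adjusted p = 0.051) and EIF3E (adjusted p = 0.0575) for HDW in GCN2KO cells (edgeR). Values near 0 without a call changed sign. EIF2B4 in GCN2KO unwounded cells was -0.011 with library size alone and -0.0301 to 0.0635 with 1 library left out. EIF2B1 in GCN2KO cells after HDW was -0.0142 without a filter and -0.0069 to 0.0297 with 1 library left out. EIF4EBP3 for HDW in WT cells was -0.0002 with DESeq2 size factors, -0.0374 with library size alone, -0.21 after thinning and -0.14 to 0.1916 with 1 library left out. With 1 library left out it was -0.0698 to 0.2978 for HDW in GCN2KO cells and -0.0697 to 0.291 in the interaction. EIF4EBP3 had at most 32 counts a library, which limits the precision of its values.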

Other observations

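Of 21 partners and regulators of initiation outside the 44 genes, 8 were higher and 5 lower in GCN2KO than in WT unwounded cells (edgeR, median log2 fold change 0.04), where 33.4% and 33.1% of all genes tested were, and 11 were higher and 6 lower after HDW (median 0.14), against 35.9% and 35.8%. The largest changes in unwounded cells were those of MKNK2, a kinase of eIF4E, at 1.39 ± 0.080 (SE, adjusted p = 4.83e-10 by edgeR), and PDCD4, an inhibitor of eIF4A, at -0.88 ± 0.092 (SE, adjusted p = 3.75e-07 by edgeR). MKNK1, the other eIF4E kinase of the list, was higher too, at 0.84 ± 0.075 (SE, adjusted p = 5.93e-08 by edgeR) unwounded and 0.82 ± 0.056 (SE, adjusted p = 1.88e-08 by edgeR) after HDW. PABPC1, the poly(A)-binding protein that contacts eIF4G, was lower, at -0.75 ± 0.080 (SE, adjusted p = 5.55e-07 by edgeR) and -0.70 ± 0.056 (SE, adjusted p = 7.82e-08 by edgeR), while its inhibitor PAIP2 was higher by 0.88 ± 0.075 (SE, adjusted p = 3.74e-08 by edgeR) and 0.48 ± 0.045 (SE, adjusted p = 3.65e-07 by edgeR). HDW gave 9 higher and 5 lower of the 21 in WT (26.1% and 25.2% of all genes) and 5 higher and 1 lower in GCN2KO cells (11.9% and 10.8%). In the interaction 1 was positive and 3 negative (11.2% and 12.5% of all genes), the negative those of MKNK2, PAIP2 and RPS6KB2 at -0.54, -0.40 and -0.30.

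Of 8 genes of elongation and termination, 2 were higher and 5 lower in GCN2KO unwounded cells (median log2 fold change -0.50), where 33.4% of all genes were higher and 33.1% lower, and 3 were higher and 5 lower after HDW (median -0.57), against 35.9% and 35.8%. The lower genes were EEF1A1, EEF1B2, EEF1G, EEF2 and EEF2K in both states, with EEF1B2 at -0.97 ± 0.044 (SE, adjusted p = 5.89e-10 by edgeR) after HDW, and ETF1, the release factor that reads stop codons, was higher at 0.87 ± 0.045 (SE, adjusted p = 1.62e-09 by edgeR). EEF1G had only 8 to 41 raw counts a library, and its groups overlapped in both states. In WT unwounded cells it stood at 1.71 TPM, against 1027 TPM for EEF1B2. Why so few reads were counted for EEF1G was not tested, so its place among the lower genes is uncertain. EEF1A1, EEF1B2 and EEF2 begin with a TOP form in RefSeq. The named partners were chosen after their values were seen.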
